A study of Mus musculus with 8 samples.

Results

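The comparison set 2 arrays of cultured Th2 cells against 2 arrays of cultured Th17 cells, 4 of the 8 arrays in the series, all taken by their sample titles. Both cell types were made from naive CD4 T cells of OT-II mice on the C57BL/6 background, 6 to 8 weeks old, whose transgenic T cell receptor recognises an ovalbumin peptide. Cells from spleen and lymph node were grown for 5 days with the peptide and antigen-presenting cells. Th2 cultures received IL-4 (10 ng/ml) and an antibody that blocks interferon gamma. Th17 cultures received IL-6 (20 ng/ml), TGF-beta and antibodies that block IL-4 and interferon gamma. The blocking of interferon gamma was therefore common to both. A further pair of arrays of Th1 cells, grown with IL-12 (10 ng/ml) and the IL-4 antibody, entered the fit for its estimate of spread and is given beside some results. The last pair of arrays, sorted Tfh cells of immunized mice, was left out of the fit. Its values had another distribution (medians of 3.46 and 3.44, against 3.04 to 3.08 in the cultured arrays). The labels name no separate mice or cultures for the 2 arrays of a type, so every p-value measures only the spread between arrays, which may be technical for Th17. The Th2 arrays differed in genes of the sex chromosomes, given below. Levels are GCRMA values in log2 units, and a difference is always Th2 minus Th17.

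Helper T cells take on different programmes according to the cytokines around them at activation. IL-4 acts through STAT6 to raise GATA3, and the resulting Th2 cells secrete IL-4, IL-5 and IL-13, which drive responses to worms and allergy. IL-6 acts through STAT3 and, together with TGF-beta, leads to Th17 cells, which secrete IL-17A, a cytokine of defence against fungi and bacteria at mucosal surfaces. The genes Il4, Il13 and Il5 lie in 1 cluster that Th2 cells open as a unit, with Rad50 between Il13 and Il5.

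The 4 arrays had nearly the same distribution of values. Medians over all probe sets lay between 3.05 and 3.08. Of 10635 genes tested, 681 had Th2 replicates more than 1 log2 unit apart, and 1324 had Th17 replicates that far apart. The 13 measured genes of CD4 T cell identity had summed log2 levels of 142.0 and 146.9 in Th2, against 147.5 and 150.5 in Th17. Cd4 itself averaged 8.80 ± 0.27 in Th2 and 9.46 ± 0.38 in Th17 (SD, n = 2 each), and the antigen receptor gene Cd3e stood at 9.71 and 10.44 in Th2, against 9.83 and 10.77 in Th17. None of the 13 was called in limma, and 5 had an unadjusted p under 0.05, against 9.7% of all tested genes. Both Th2 arrays lay above both Th17 arrays in 2 and below in 6, against 21.4% and 23.5% of all tested genes. The furthest apart were genes of surface receptors that restrain or tune antigen receptor signals: Cd5 stood at 9.79 and 8.75 in Th2, against 12.64 and 10.73 in Th17 (-2.42, SE 0.74, adjusted p = 0.421), and Cd6 at 9.14 and 7.91 against 11.60 and 9.62 (-2.08, SE 0.77, adjusted p = 0.497). Markers of mast cells, neutrophils and platelets were high in Th2 replicate 1 and are described at the end. Genes of the sex chromosomes also differed between arrays: Xist, expressed from the inactive X chromosome of females, stood at 5.48 and 11.92 in Th2, against 2.82 and 2.55 in Th17, and the Y-linked gene Eif2s3y at 11.10 and 2.42 against 10.87 and 11.34. Th2 replicate 1 thus held both transcripts, and Th2 replicate 2 was low in the Y-linked one, so the 2 Th2 arrays were not repeats of 1 RNA. Xist was above the filter value of 3.06 in both Th2 arrays and in neither Th17 array. In Eif2s3y, Th2 replicate 1 was at the level of the Th17 arrays. The sex of the cells thus differed between the 2 Th2 arrays, and only in part along with the culture type. Its part in the differences was not tested. Rnf128 and Stard8, among the genes called in limma, lie on the X chromosome.

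At an adjusted p under 0.05 and a difference of at least 1 log2 unit, 27 of 10635 genes were called, which is 0.254% of those tested. Of these, 22 were higher in Th2 (0.207%) and 5 were lower (0.047%). Many more genes had no overlap between the groups at a large difference: 172 genes had both Th2 arrays above both Th17 arrays by a mean of at least 2 log2 units (1.62% of those tested), and 97 had both below (0.912%). Without regard to size, 2280 genes (21.4%) had both Th2 arrays above both Th17 arrays, 2497 (23.5%) had both below, and 1032 (9.7%) had an unadjusted p under 0.05 in either direction. These shares are the background for the counts of the lists below. The called genes had a median standard error of 0.18, against 0.27 over all tested genes, with the highest for Epas1 (0.62). In 10 of the 22 genes called higher, both Th17 arrays lay at or under the filter value of 3.06, and in 4 of the 5 called lower both Th2 arrays did. Their differences are therefore set on one side by the background level of the array. Part of the spread behind their SE and p-values is also that of background values. When each of the 6 cultured arrays was left out in turn, only Tanc2 among the 27 was still called every time (largest adjusted p = 0.0454). Leaving out Th2 replicate 1 or 2 gave 27 and 49 calls, leaving out Th17 replicate 1 or 2 gave 6 and 5, and leaving out either Th1 replicate gave 7, of which 12, 16, 2, 1, 7 and 7 were among the 27.

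**Figure D1:**
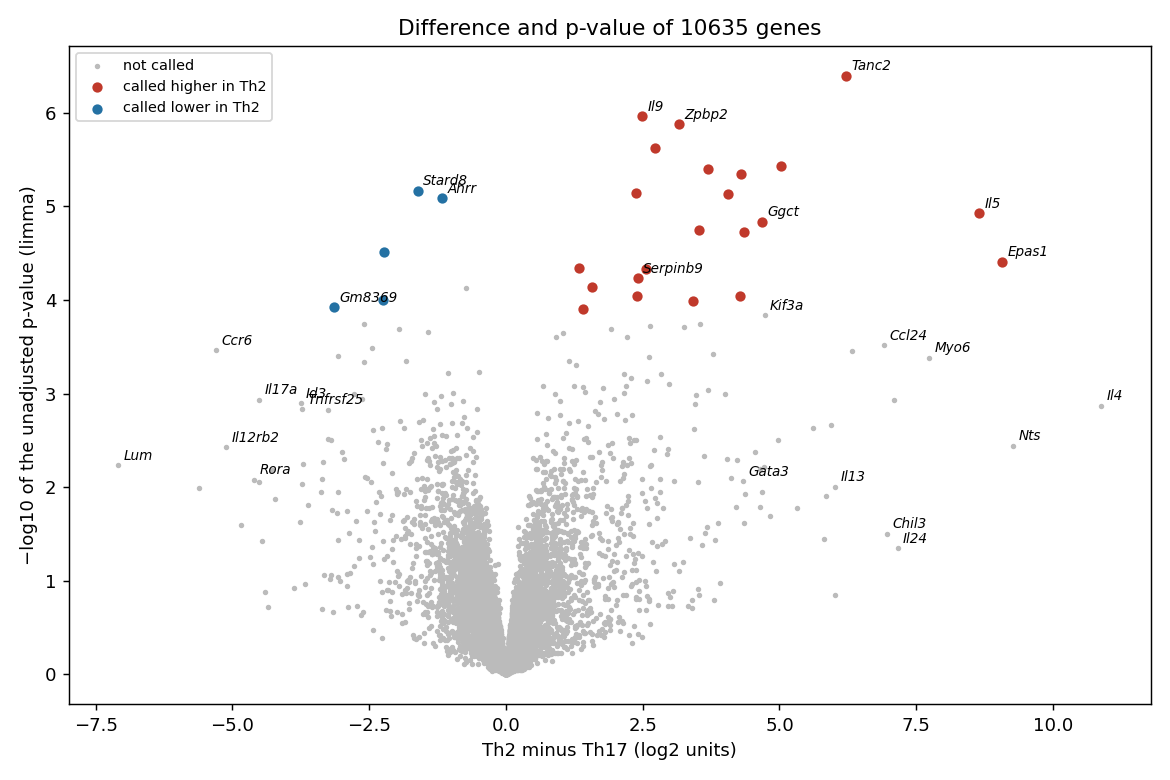
Difference Th2 minus Th17 in log2 units (horizontal axis) against −log10 of the unadjusted limma p-value (vertical axis) for 10635 genes, with called genes in colour. Il5, Epas1 and Tanc2 combined large differences with small p-values, while Il4, with the largest difference of all tested genes (10.88), lay below the called genes.

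The cytokine genes that define Th2 cells were all high in both Th2 arrays. Il5, which drives eosinophil growth, stood at 11.51 and 11.28 in Th2, against 2.76 and 2.72 in Th17. It rose by 8.65 log2 units (SE 0.46, adjusted p = 0.0105), and the call was lost without Th2 replicate 1 (0.0604), Th17 replicate 1 (0.103) or Th17 replicate 2 (0.111). Il4, the signature Th2 cytokine that also drives its own differentiation, stood at 15.20 and 15.57 in Th2, against 5.54 and 3.46 in Th17. The difference of 10.88 (SE 1.62) missed the threshold (adjusted p = 0.169), while both Th2 arrays lay far above both Th17 arrays. Il4 also stood at 6.11 and 10.60 in the Th1 arrays, which share in the estimate of spread. It was called in limma when all 8 arrays were fitted (adjusted p = 0.044). That fit takes part of its spread from the Tfh arrays, which have another value distribution and closely alike replicates (correlation 0.998). Il13, which acts on epithelium and smooth muscle, stood at 11.39 and 11.22 in Th2, against 7.08 and 3.49 in Th17 (6.02, SE 1.45, adjusted p = 0.342). As with Il4, the Th2 arrays were close together and the Th17 arrays far apart, without overlap.

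Il9, a mast cell growth factor made by some helper cells, stood at 4.90 and 4.99 in Th2, against 2.48 and 2.43 in Th17. It rose by 2.49 (SE 0.08, adjusted p = 0.00468), a call lost without Th17 replicate 1 (0.056) or Th17 replicate 2 (0.0524). Its level in Th2 was low beside Il4 or Il5 on this log2 scale, although levels of different probe sets are not directly comparable. Il24, an IL-10 family cytokine, stood at 13.93 and 14.57 in Th2, against 10.80 and 3.38 in Th17 (7.16, SE 2.64, adjusted p = 0.497). Il10, an inhibitory cytokine, stood at 13.57 and 13.95 in Th2, against 9.37 and 6.52 in Th17 (5.81, SE 2.00, adjusted p = 0.474). In both genes the Th2 arrays differed by less than 1 log2 unit and Th17 replicate 1 lay well above Th17 replicate 2. Il31, an itch cytokine of Th2 cells, stood at 8.53 and 8.63 in Th2, against 4.30 and 4.10 in Th17, and Il6 at 11.64 and 10.14 against 6.61 and 4.51. Neither was called (adjusted p = 0.35 and 0.379), although the groups did not overlap in either gene. Il3, a growth factor of blood cells, stood at 12.85 and 14.55 in Th2, against 11.87 and 8.81 in Th17, and both Th1 arrays were as high as the upper Th2 array or higher.

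**Figure D2:**
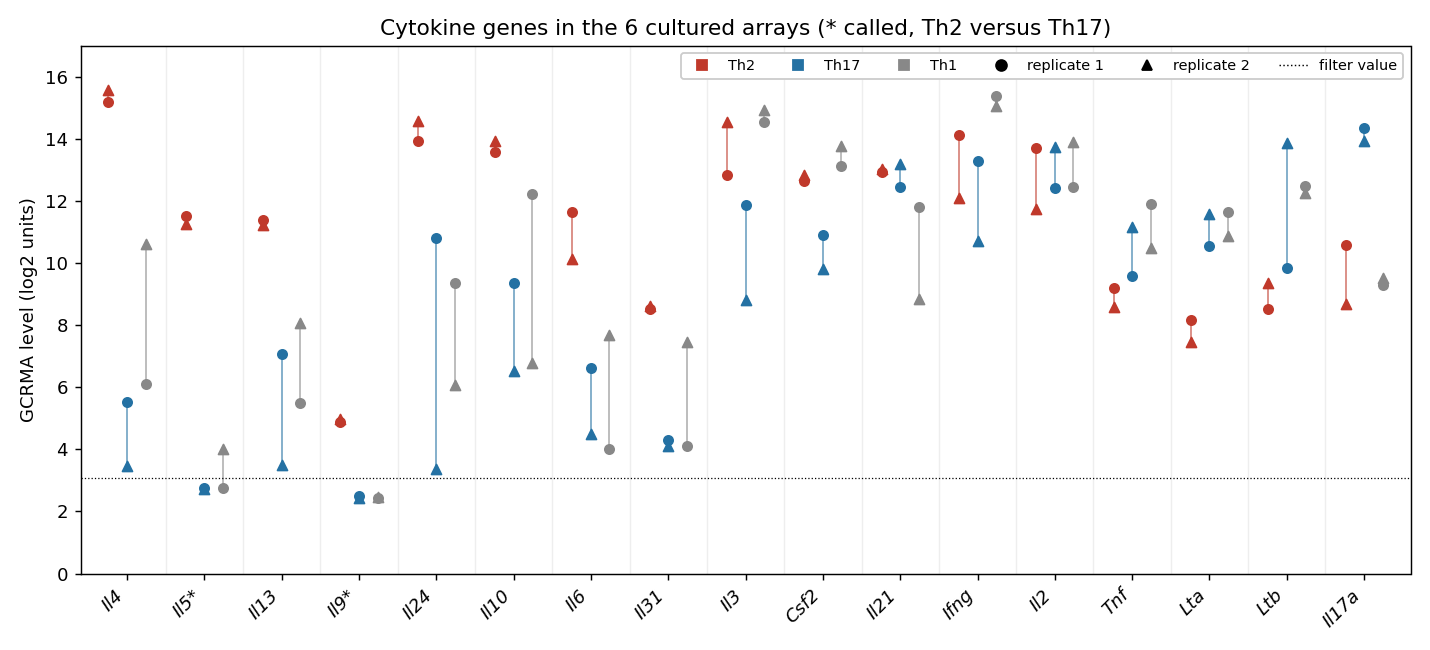
GCRMA level in log2 units (vertical axis) of 17 cytokine genes in Th2 (red), Th17 (blue) and Th1 (grey) arrays, with replicate 1 as circles, replicate 2 as triangles, a line joining the replicates and the filter value dotted. From Il4 to Csf2 both Th2 arrays lay above both Th17 arrays, and from Tnf to Il17a below them.

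Il17a, the defining Th17 cytokine, stood at 10.59 and 8.67 in Th2, against 14.35 and 13.93 in Th17. The difference of -4.51 (SE 0.65) was not called (adjusted p = 0.162), and it was -5.47 without Th2 replicate 1. Both Th17 arrays lay above both Th2 arrays, and the Th2 arrays were at about the level of the Th1 arrays (9.31 and 9.51), well above the filter value. Il21, which both STAT3-dependent and follicular helper cells make, stood at 12.95 and 13.04 in Th2, against 12.46 and 13.20 in Th17, with overlap. Csf2, which encodes GM-CSF, stood at 12.66 and 12.83 in Th2, against 10.91 and 9.81 in Th17 (2.38, SE 0.43, adjusted p = 0.246). The lymphotoxin genes stood the other way. Lta stood at 8.18 and 7.45 in Th2, against 10.56 and 11.58 in Th17 (-3.25, SE 0.50, adjusted p = 0.179), and Ltb at 8.53 and 9.37 against 9.85 and 13.87. Tnf, their neighbour in the genome and family, stood at 9.21 and 8.58 in Th2, against 9.58 and 11.17 in Th17. Among the 3, none overlapped between the groups and none was called. Ifng, which both cultures were treated to block at the protein level, stood at 14.12 and 12.09 in Th2, against 13.30 and 10.72 in Th17, with overlap. Of 30 tested secreted cytokine genes, 2 were called higher (Il5 and Il9) and 0 lower in limma against 0.207% and 0.047% of all tested genes. At an unadjusted p under 0.05 there were 13, against 9.7% of all tested genes. Both Th2 arrays lay above both Th17 arrays in 16 (11 of them by at least 2) and below in 6 (3 by at least 2). Over all tested genes the shares were 21.4% (1.62% by at least 2) and 23.5% (0.912%). Without Th17 replicate 1 or Th17 replicate 2, neither was called. Their median difference was 1.39, against -0.02 over all tested genes.

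The promoters of the Th2 cytokines and Il17a are shown because these are the cytokine genes that define each cell type. Sequences are from RefSeq on GRCm38.p6, from 250 bases before to 50 bases after the annotated start, read in the direction of the gene. Capitals mark matches, on either strand, to the STAT spacings TTCNNNGAA and TTCNNNNGAA, the GATA core GATAA, the nuclear receptor element AGGTCA and the AP-1 site TGANTCA. The Il5 window held no match, and no matches overlapped another motif in these windows. Il4 is at chr11:53618616-53618915 on the minus strand, the outermost of 2 annotated starts, Il13 at chr11:53634653-53634952 on the minus strand, Il5 at chr11:53720544-53720843 on the plus strand, and Il17a at chr1:20730655-20730954 on the plus strand.
Il4: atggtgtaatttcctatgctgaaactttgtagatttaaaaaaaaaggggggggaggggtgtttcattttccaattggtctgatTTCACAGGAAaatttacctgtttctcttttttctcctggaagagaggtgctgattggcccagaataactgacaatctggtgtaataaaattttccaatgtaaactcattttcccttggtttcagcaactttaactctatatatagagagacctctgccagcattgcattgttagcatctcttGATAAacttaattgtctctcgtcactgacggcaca
Il13: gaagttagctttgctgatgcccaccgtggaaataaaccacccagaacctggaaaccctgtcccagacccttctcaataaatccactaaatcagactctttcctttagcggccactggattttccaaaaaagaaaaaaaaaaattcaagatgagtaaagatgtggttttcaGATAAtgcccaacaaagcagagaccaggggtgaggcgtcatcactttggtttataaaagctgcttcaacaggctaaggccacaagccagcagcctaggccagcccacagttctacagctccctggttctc
Il5: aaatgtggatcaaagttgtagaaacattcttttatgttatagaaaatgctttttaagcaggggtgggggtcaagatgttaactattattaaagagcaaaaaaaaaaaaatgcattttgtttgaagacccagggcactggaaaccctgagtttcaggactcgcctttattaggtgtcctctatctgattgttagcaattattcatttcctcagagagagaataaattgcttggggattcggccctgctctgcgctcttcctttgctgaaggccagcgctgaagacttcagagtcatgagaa
Il17a: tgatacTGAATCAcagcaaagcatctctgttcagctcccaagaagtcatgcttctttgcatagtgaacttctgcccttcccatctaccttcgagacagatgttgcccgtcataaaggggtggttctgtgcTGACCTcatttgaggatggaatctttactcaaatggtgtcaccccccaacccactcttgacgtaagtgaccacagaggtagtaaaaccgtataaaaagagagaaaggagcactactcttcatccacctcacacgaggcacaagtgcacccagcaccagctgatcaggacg

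The Il4 window held 1 match to the wider STAT spacing, starting at position -167 relative to the start, and 1 GATAA at position 16. The Il13 window held 1 GATAA at position -80. The Il17a window held 1 AP-1 site at position -244 and 1 AGGTCA on the opposite strand at position -120. Of 32851 promoter windows of this length in the table, 8.3% held TTCNNNGAA, 6.95% TTCNNNNGAA, 25.4% GATAA, 16.3% AGGTCA and 7.81% TGANTCA. These matches are descriptions of letters only.

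Of the transcription factors called, Epas1 had the largest difference. Epas1, which encodes the hypoxia-inducible factor HIF-2 alpha, stood at 11.42 and 13.07 in Th2, against 3.52 and 2.82 in Th17. It rose by 9.07 (SE 0.62, adjusted p = 0.0244), and another probe set gave a difference of 4.96. The call was lost without Th17 replicate 1 (0.122), Th17 replicate 2 (0.157), Th1 replicate 1 (0.123) or Th1 replicate 2 (0.124). Gata3, the master regulator of Th2 cells, stood at 10.44 and 11.13 in Th2, against 5.95 and 6.97 in Th17 (4.32, SE 1.01, adjusted p = 0.323). Both Th2 arrays lay more than 3 log2 units above both Th17 arrays, and the Th1 arrays stood at 4.95 and 7.74. Pparg, a lipid-sensing nuclear receptor, stood at 10.26 and 9.64 in Th2, against 7.15 and 7.78 in Th17 (2.48, SE 0.62, adjusted p = 0.348). Maf, which drives Il4 and is also used by other helper types, stood at 13.40 and 13.87 in Th2, against 11.61 and 12.61 in Th17, and its 5 other measured probe sets differed by 0.35 to 1.86.

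Factors linked to Th17 cells stood on both sides. Rora, a nuclear receptor that promotes Th17 differentiation, stood at 6.53 and 4.59 in Th2, against 9.68 and 10.64 in Th17 (-4.60, SE 1.06, adjusted p = 0.323). Its 6 other measured probe sets were all lower in Th2, by -4.38 to -1.42. Runx1, a transcription factor of T cell development, stood at 9.14 and 9.56 in Th2, against 7.48 and 8.09 in Th17, and the Ikaros family gene Ikzf3 at 10.30 and 10.87 against 7.24 and 8.51. Batf, an AP-1 factor needed for Th17 and Th2 responses, stood at 11.04 and 12.41 in Th2, against 10.39 and 9.53 in Th17. These 3 genes thus lay higher in both Th2 arrays, with none of them called (adjusted p = 0.277, 0.267 and 0.476). The 4 other measured probe sets of Runx1 differed by 0.08 to 1.85. Id3, an inhibitor of E proteins, stood at 6.04 and 5.62 in Th2, against 9.45 and 9.71 in Th17 (-3.75, SE 0.55, adjusted p = 0.163). Stat4, which carries IL-12 signals, stood at 9.15 and 9.08 in Th2, against 10.22 and 10.40 in Th17, with both Th1 arrays higher still. The STAT genes of the cytokines added to the cultures overlapped: Stat6 stood at 9.41 and 9.60 in Th2, against 9.61 and 9.53 in Th17, and Stat3 at 10.45 and 11.22 against 11.17 and 10.98. Il17f was not analysed here.

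**Figure D3:**
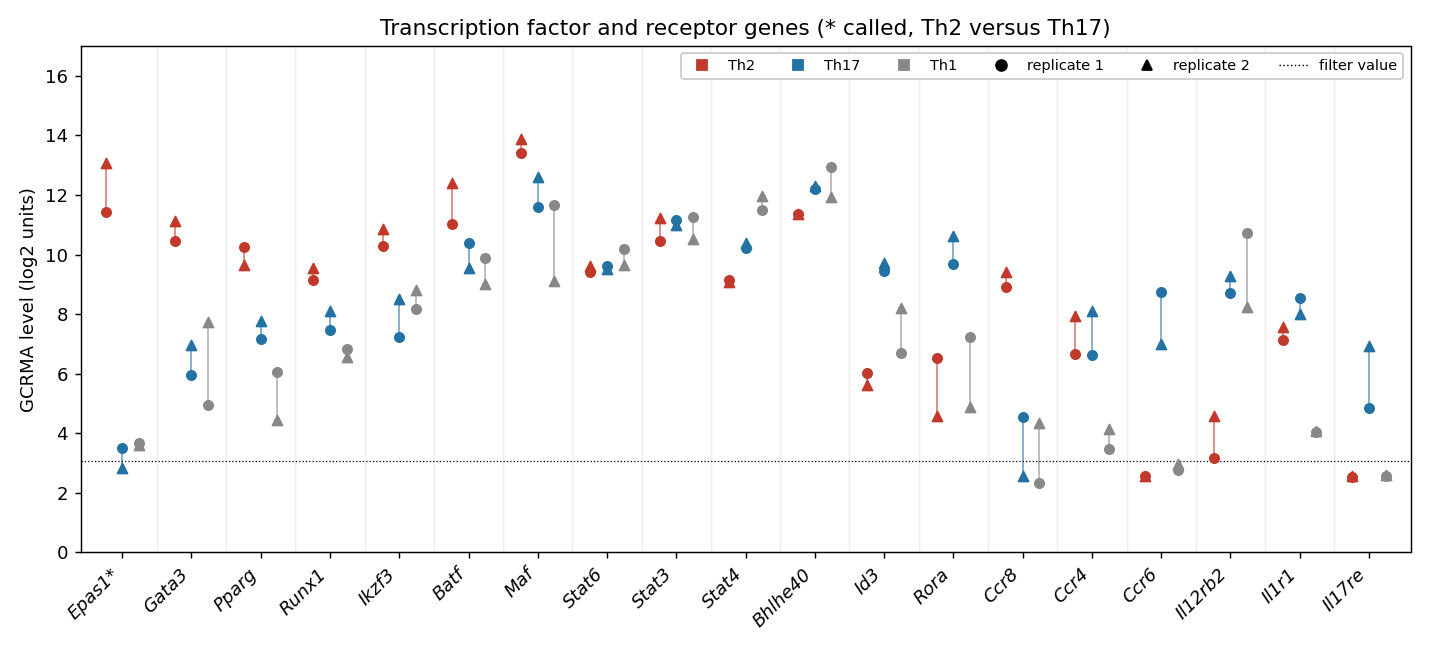
GCRMA level in log2 units (vertical axis) of 13 transcription factor and 6 receptor genes in Th2 (red), Th17 (blue) and Th1 (grey) arrays, with circles for replicate 1, triangles for replicate 2 and the filter value dotted. Epas1, Gata3 and Ccr8 were high in both Th2 arrays, Rora, Id3, Ccr6 and Il17re in both Th17 arrays, and Stat6, Stat3 and Ccr4 overlapped.

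Of 31 tested members of the Th2 programme list, 3 were called higher (Epas1, Il5 and Il9), 0 lower in limma and 28 neither, against 0.207% and 0.047% of all tested genes. At an unadjusted p under 0.05 there were 17, against 9.7% of all tested genes. Both Th2 arrays lay above both Th17 arrays in 20 members and below in 4, against 21.4% and 23.5% of all tested genes, and 14 lay above and 0 below by a mean of at least 2 log2 units (1.62% and 0.912%). The list was chosen with earlier results of these arrays known, and its median difference was 1.53. Its counts, with Epas1 among the calls, are therefore not independent of these arrays. Without Th17 replicate 1 or Th17 replicate 2, 0 of its members were called. The 14 included Ptgir, a prostacyclin receptor, at 8.56 and 8.69 in Th2, against 6.28 and 3.95 in Th17. Ecm1, a secreted protein that lets Th2 cells leave lymph nodes, stood at 13.94 and 14.30 in Th2, against 12.38 and 11.92 in Th17, just under that size. The 4 members that lay lower in both Th2 arrays were Bhlhe40 (11.37 and 11.36 in Th2, against 12.21 and 12.29 in Th17), Irf4 (11.61 and 12.27, against 12.47 and 12.33), Junb (9.88 and 10.06, against 11.03 and 10.27) and Tnfrsf1b (6.91 and 6.96, against 7.70 and 8.06). Ccr3, Ptgdr2 and Bhlhe41, all genes of differentiated Th2 cells or eosinophils, were at or under the filter value in all 4 arrays. Il17rb, a receptor for IL-25, stood at 2.67 and 5.97 in Th2, against 2.62 and 2.51 in Th17, and was above the filter value only in Th2 replicate 2.

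Of 33 tested members of the Th17 programme list, 0 were called in either direction in limma, and 11 had an unadjusted p under 0.05, against 9.7% of all tested genes. Both Th2 arrays lay above both Th17 arrays in 10 members and below in 8, against 21.4% and 23.5% of all tested genes. There were 5 members with both Th2 arrays below both Th17 arrays by a mean of at least 2 log2 units, namely Il17a, Rora, Ccr6, Ltb4r1 and Tnfrsf25 (0.912% of all tested genes). The list also held 3 with both Th2 arrays above by that size, Ikzf3, Csf2 and Cxcr6 (1.62%), and its median difference was 0.11. Cxcr6, a homing receptor of effector T cells, stood at 10.86 and 11.11 in Th2, against 8.56 and 8.34 in Th17. Tnfrsf25, the receptor DR3, stood at 4.49 and 5.80 in Th2, against 8.39 and 9.35 in Th17, and Ltb4r1, a leukotriene B4 receptor, at 5.05 and 3.63 against 7.69 and 9.92. Neither gene overlapped between the groups, and neither was called (adjusted p = 0.179 and 0.482). Other members were level or overlapped, among them Hif1a (14.00 and 14.28 in Th2, against 14.08 and 14.15 in Th17), Ahr (8.55 and 9.25, against 7.67 and 8.82) and Nfkbiz (9.70 and 10.07, against 9.79 and 9.76).

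Of 14 tested chemokine receptor genes, 2 had both Th2 arrays above both Th17 arrays and 6 had both below, and of 28 tested cytokine receptor genes 5 and 7, against 21.4% and 23.5% of all tested genes. Ccr6, the receptor that leads Th17 cells to sources of CCL20, stood at 2.57 and 2.56 in Th2, against 8.73 and 6.99 in Th17 (-5.30, SE 0.58, adjusted p = 0.0863). Both Th2 arrays were under the filter value. The difference was -4.43 without Th17 replicate 1 and -6.17 without Th17 replicate 2. Ccr8, a receptor of Th2 and regulatory cells, stood at 8.92 and 9.43 in Th2, against 4.56 and 2.56 in Th17 (5.61, SE 0.95, adjusted p = 0.221). Ccr4, often used to mark Th2 cells, stood at 6.68 and 7.95 in Th2, against 6.64 and 8.10 in Th17, while the Th1 arrays stood at 3.48 and 4.13. It thus separated both cultures from Th1 but overlapped between them. Among cytokine receptors, Il12rb2, the signalling chain of the IL-12 receptor, stood at 3.18 and 4.58 in Th2, against 8.71 and 9.29 in Th17 (-5.12, SE 0.97, adjusted p = 0.264). Il18r1, a receptor for IL-18, stood at 4.44 and 5.15 in Th2, against 6.17 and 10.07 in Th17. Il1r1, through which IL-1 acts on Th17 cells, stood at 7.13 and 7.57 in Th2, against 8.54 and 8.02 in Th17, with the Th1 arrays at 4.06 and 4.09. Il17re, a receptor chain for IL-17C chosen after its values were seen, stood at 2.52 and 2.58 in Th2, against 4.84 and 6.95 in Th17. Il4ra, the receptor for IL-4, overlapped, at 9.25 and 10.72 in Th2 against 10.94 and 9.72 in Th17. In both receptor lists 0 were called in either direction in limma, with 5 in each at an unadjusted p under 0.05 (9.7% of all tested genes). Ackr3, a scavenging receptor, stood at 2.54 and 2.51 in Th2, against 3.26 and 3.26 in Th17, and its difference of -0.73 (adjusted p = 0.0363) was under the threshold of 1 log2 unit.

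Apart from the cytokines, most genes called higher in Th2 have no textbook place in the Th2 programme. Tanc2, a scaffold protein known from synapses, stood at 8.86 and 8.92 in Th2, against 2.69 and 2.67 in Th17. It rose by 6.21 (SE 0.16, adjusted p = 0.00429), and its 2 other measured probe sets gave 2.08 and 4.73. Rnf128, the ubiquitin ligase GRAIL that restrains T cell activation and cytokine production, stood at 7.73 and 8.05 in Th2, against 3.89 and 3.78 in Th17. It rose by 4.06 (SE 0.19, adjusted p = 0.00783) and was chosen for a list with earlier results of these arrays in view. Ggct, an enzyme of glutathione breakdown, stood at 12.44 and 12.33 in Th2, against 7.75 and 7.67 in Th17, a rise of 4.67 (SE 0.26, adjusted p = 0.012). Its Th17 level was also well above the filter value. Hgf, the hepatocyte growth factor gene, stood at 6.26 and 5.69 in Th2, against 2.43 and 2.45 in Th17, a rise of 3.54 (SE 0.20, adjusted p = 0.0133). Mboat1, a lysophospholipid acyltransferase gene, stood at 9.82 and 10.00 in Th2, against 6.34 and 6.64 in Th17, a rise of 3.42 (SE 0.29, adjusted p = 0.0423). In each of these genes both Th1 arrays lay below both Th2 arrays.

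A pair of serotonin receptor genes was among the called genes. Htr1b stood at 6.61 and 7.31 in Th2, against 2.66 and 2.54 in Th17, and rose by 4.36 (SE 0.25, adjusted p = 0.0133). Htr7 stood at 4.54 and 4.72 in Th2, against 3.33 and 3.13 in Th17, and rose by 1.40 (SE 0.12, adjusted p = 0.0474). Rnf152, a lysosomal ubiquitin ligase gene, rose by 5.03 to 7.62 and 8.11 in Th2, against 2.83 and 2.84 in Th17. The matrix protein gene Adamtsl3 rose by 4.29, with 6.93 and 6.44 in Th2 against 2.43 and 2.37 in Th17. The sperm protein gene Zpbp2 rose by 3.16, with 5.99 and 5.84 in Th2 against 2.76 and 2.75 in Th17. The other genes in the first 15 by size were Arfgef3 (4.27), which encodes an ARF exchange factor family member, Sh3d19 (3.70), Ankrd36 (2.73) and Oaf (2.56). Serpinb9, which encodes an inhibitor of granzyme B, stood at 11.16 and 10.90 in Th2, against 8.74 and 8.50 in Th17, a rise of 2.41 (SE 0.18, adjusted p = 0.0311), and was still higher in Th1 (12.33 and 12.10). It was the exception among the 22, since in the other 21 both Th1 arrays lay below both Th2 arrays. The remaining called genes were Zfyve16 (2.39), Myo9a (2.39), the transcription factor genes Grhl1 (1.57) and Nfia (1.33). Other probe sets were measured for 10 of the 27 called genes, 12 in all, and all 12 differed in the same direction.

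Of the 5 genes called lower in Th2, 3 were near the array background in both Th2 and Th1 arrays. Ahrr, the repressor of the aryl hydrocarbon receptor and itself a target of that receptor, stood at 2.32 and 2.30 in Th2, against 3.45 and 3.52 in Th17. It fell by 1.17 (SE 0.06, adjusted p = 0.00788), with Th1 arrays at 2.31 and 2.32. Stard8 stood at 2.51 and 2.50 in Th2, against 4.10 and 4.14 in Th17, and fell by 1.61 (SE 0.08, adjusted p = 0.00783). Ppp1r14c, an inhibitor of protein phosphatase 1, stood at 2.74 and 2.72 in Th2, against 4.78 and 5.15 in Th17, and fell by 2.24 (SE 0.14, adjusted p = 0.0204). In these 3 genes the Th17 arrays lay between 3.45 and 5.15, not far above the filter value. Their small SE and p-values rest in large part on the spread of background values in the Th2 and Th1 arrays. Ahrr passed the filter only through its Th17 arrays. Without a trend in the variance, 0 genes were called lower in Th2. Prickle1, a gene of planar cell polarity, stood at 3.06 and 2.98 in Th2, against 5.08 and 5.45 in Th17, and the Th1 arrays were at 5.32 and 5.12. Gm8369, outside the rule for named genes because of its symbol, stood at 5.67 and 6.27 in Th2, against 8.98 and 9.24 in Th17, with 9.71 and 9.75 in Th1. Prickle1 fell by 2.24 and Gm8369 by 3.15, and in both the Th1 arrays stood with Th17.

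**Figure D4:**
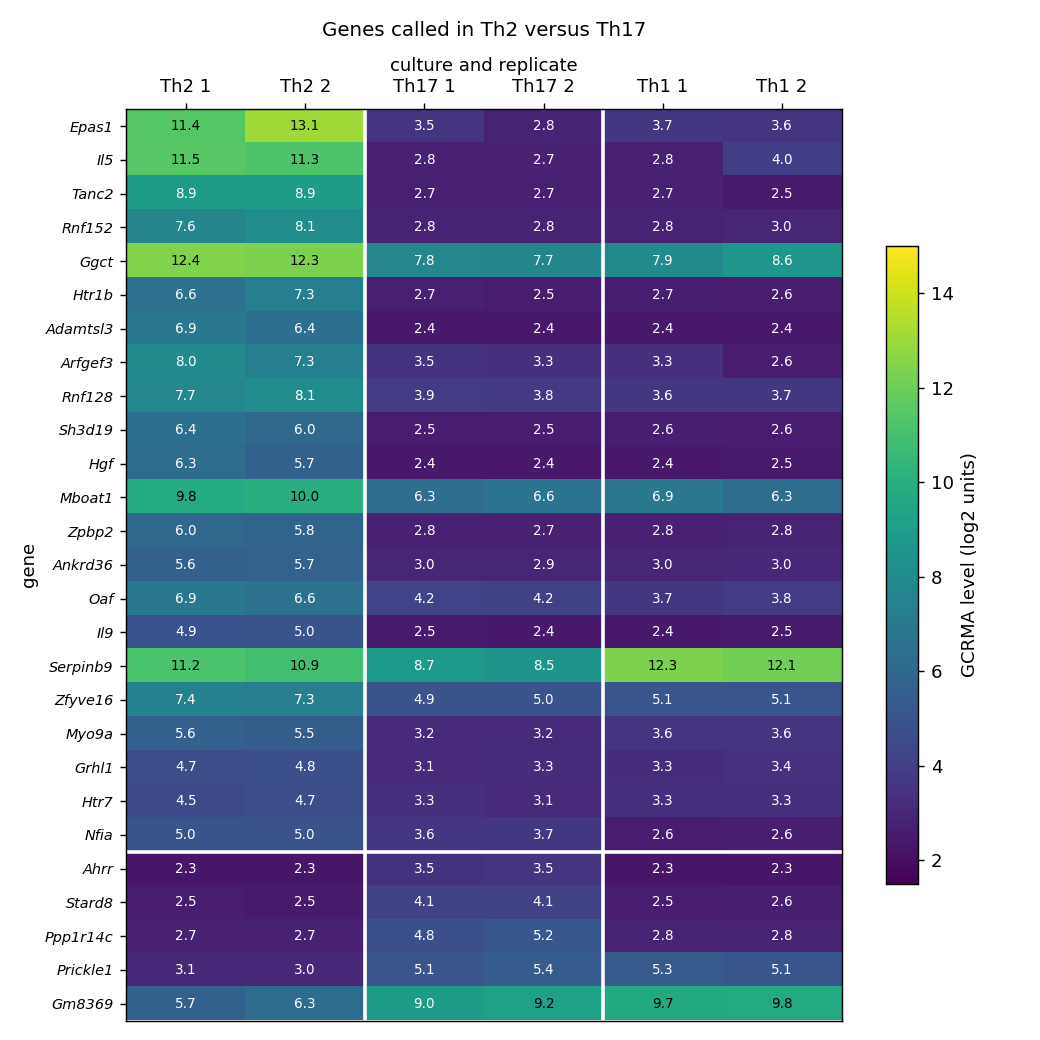
GCRMA levels in log2 units, as colour and printed value, of the 27 called genes in rows and the 6 cultured arrays in columns, ordered by the difference Th2 minus Th17 with a line between the 22 higher and the 5 lower in Th2. Serpinb9 was also high in Th1, and Prickle1 and Gm8369 were at a similar level in Th17 and Th1.

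Among genes known to respond to the added cytokines, or to the aryl hydrocarbon receptor, 1 was called. Of 20 tested genes of the IL-4 and STAT6 response, 0 were called in limma in either direction (6 at an unadjusted p under 0.05, against 9.7% of all tested genes), and the median difference was 0.37. Both Th2 arrays lay above both Th17 arrays in 7 and below in 3, against 21.4% and 23.5% of all tested genes. By at least 2 log2 units it was 4 and 1, against 1.62% and 0.912% of all tested genes. Asb2, a ubiquitin ligase component of Th2 cells, stood at 9.28 and 9.84 in Th2, against 7.42 and 7.12 in Th17 (2.29, SE 0.29, adjusted p = 0.131). Of 22 tested genes of the IL-6 and STAT3 response, 0 were called in limma (3 at an unadjusted p under 0.05, 4 above and 7 below), with Socs3, the feedback inhibitor of IL-6 signals, at 11.56 and 12.60 in Th2, against 12.03 and 11.28 in Th17. Of 25 tested TGF-beta responsive genes, 0 were called in limma (4 at an unadjusted p under 0.05, 8 above and 4 below), and of 14 tested ligands, receptors and SMADs likewise 0 (1 at an unadjusted p under 0.05, 3 above and 6 below). Smad7, the inhibitory SMAD induced by TGF-beta, stood at 5.91 and 6.24 in Th2, against 7.22 and 7.25 in Th17 (-1.16, SE 0.29, adjusted p = 0.348), with 7.42 and 6.87 in Th1. Another measured probe set of Smad7 differed by only -0.056. Itgae, an integrin gene induced by TGF-beta, stood the other way, at 6.07 and 6.98 in Th2, against 5.04 and 5.06 in Th17. Of 7 tested aryl hydrocarbon receptor targets, 1 was called (Ahrr, lower in Th2), against 0.047% of all tested genes called lower. Ahrr passed the filter only through its Th17 arrays, so its call says little about the list. Cyp1a1, the best known target, stood at 2.07 and 2.06 in Th2, against 2.20 and 2.84 in Th17, under the filter value throughout.

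Genes of other helper programmes were not confined to 1 culture. Foxp3, the regulator of regulatory T cells, stood at 2.38 and 2.38 in Th2, against 2.38 and 2.36 in Th17, under the filter value. Of the others in the regulatory T cell list, Izumo1r, the folate receptor 4 gene, stood at 12.14 and 10.95 in Th2, against 7.21 and 6.59 in Th17, and Tnfrsf4, the costimulator OX40, at 13.38 and 13.35 against 12.29 and 12.36 (1.04, SE 0.10, adjusted p = 0.0643). Of the 17 tested genes of that list, 8 had both Th2 arrays above both Th17 arrays and 0 had both below, where 21.4% and 23.5% of all tested genes did, and 0 were called in limma (6 at an unadjusted p under 0.05). Of 26 tested Th1 programme genes, 0 were called in limma (5 at an unadjusted p under 0.05, against 9.7% of all tested genes). Both Th2 arrays lay above both Th17 arrays in 6 of them and below in 9. Tbx21, the Th1 master regulator, stood at 7.38 and 8.30 in Th2, against 8.82 and 8.32 in Th17, with the Th1 arrays at 10.89 and 9.43. Havcr2, the inhibitory receptor TIM-3, stood at 8.75 and 9.67 in Th2, against 5.42 and 3.05 in Th17, and was as high in Th1. Gzma, a granzyme gene of cytotoxic cells, stood at 15.37 and 14.52 in Th2, against 10.63 and 7.56 in Th17 (5.85, SE 1.50, adjusted p = 0.353). Among 13 TNF superfamily ligands, Tnfsf13b, the B cell survival factor BAFF, stood at 4.61 and 5.33 in Th2, against 2.64 and 2.98 in Th17, and Tnfsf11, the osteoclast factor RANKL, at 10.61 and 10.58 against 9.84 and 11.03. Only the first of these did not overlap, and 0 of the 13 were called in limma (2 at an unadjusted p under 0.05).

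The remaining T cell lists gave 0 calls in limma in either direction. They held 19 tested Tfh genes, 16 of naive and memory cells, 19 chemokines, 18 SOCS and STAT genes, 14 integrins, 21 interferon response genes and 30 early T cell receptor response genes, of which 3, 1, 4, 1, 5, 3 and 4 had an unadjusted p under 0.05, against 9.7% of all tested genes. Both Th2 arrays lay above both Th17 arrays in 3, 2, 6, 4, 5, 1 and 6 of them, and below in 7, 5, 1, 3, 3, 4 and 5. Over all tested genes the shares were 21.4% and 23.5%. Cxcl10, an interferon-induced chemokine that attracts CXCR3-bearing cells, stood at 7.09 and 4.85 in Th2, against 9.64 and 10.86 in Th17 (-4.28, SE 0.92, adjusted p = 0.29). Itgb3, the beta chain of the vitronectin receptor, stood at 5.87 and 7.10 in Th2, against 2.27 and 2.61 in Th17, and Itga3, a laminin receptor chain, at 6.00 and 5.17 against 10.09 and 8.52. The groups did not overlap in any of these 3 genes, which were chosen after their values were seen. Another measured probe set of Itgb3 differed by only 0.98.

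Genes of proliferation and metabolism gave no calls between the cultures. Of 38 tested cell cycle genes, 0 were called in limma (5 at an unadjusted p under 0.05, against 9.7% of all tested genes), with both Th2 arrays above both Th17 arrays in 2 and below in 10 (21.4% and 23.5% of all tested genes). Mki67, the proliferation marker, stood at 12.25 and 11.88 in Th2, against 11.73 and 12.15 in Th17. The replication genes Mcm6 and Mcm7 lay lower in both Th2 arrays, at 12.55 and 12.55 in Th2 against 13.01 and 13.04 in Th17, and at 12.18 and 11.96 against 12.71 and 12.72. Of 30 tested genes of glycolysis and the hypoxia response, 0 were called in limma (2 at an unadjusted p under 0.05) with 0 above and 6 below and a median difference of -0.28. Ldha, which makes lactate, stood at 14.30 and 14.41 in Th2, against 14.54 and 14.37 in Th17, and Slc2a1, the glucose transporter GLUT1, at 12.48 and 12.14 against 12.86 and 11.80. Of 29 tested genes of cholesterol and fatty acid synthesis, 0 were called in limma (2 at an unadjusted p under 0.05), with 4 above and 4 below. In the amino acid response, of which 0 of 25 tested genes were called in limma (1 at an unadjusted p under 0.05, 2 above and 0 below), Th17 replicate 2 was low: Asns, asparagine synthetase, stood at 12.64 and 11.65 in Th2, against 12.33 and 10.33 in Th17. Cth, an enzyme of cysteine synthesis, stood at 12.27 and 11.04 in Th2, against 10.63 and 7.51 in Th17. The median level of this list was 9.99 and 9.51 in the Th2 arrays, against 10.28 and 8.53 in the Th17 arrays. In the Th1 arrays it was 10.17 and 8.90, so replicate 2 was the lower in each culture type.

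Markers of other cells differed between replicates as much as between cultures. In bulk RNA of this kind, more cells of a type and more of its RNA per cell cannot be told apart. The 17 measured genes of mast cells, basophils and eosinophils had summed log2 levels of 84.6 and 45.2 in Th2, against 44.4 and 45.3 in Th17. Cpa3, a mast cell protease, stood at 9.25 and 3.13 in Th2, against 2.44 and 3.13 in Th17, and Mcpt8, a basophil protease, at 9.17 and 2.63 against 2.60 and 2.21. Only Th2 replicate 1 was high, while the mast cell tryptase genes Tpsb2 and Tpsab1 and the eosinophil genes Epx and Prg3 were at the filter value or under it in all 4 arrays. The 15 neutrophil granule genes summed to 84.3 and 40.1 in Th2, against 60.2 and 42.5 in Th17. S100a8 stood at 11.10 and 3.04 in Th2, against 6.66 and 2.87 in Th17. Camp and Ltf, of the later granules, were under the filter value in all 4. The 17 erythroid and platelet genes summed to 76.8 and 60.9 in Th2, against 60.7 and 56.9 in Th17, led by the platelet chemokine gene Pf4 at 11.84 and 7.33 in Th2, against 8.97 and 5.91 in Th17.

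Several macrophage genes that IL-4 is known to induce were higher in both Th2 arrays. The 17 measured genes of alternatively activated macrophages summed to 117.3 and 90.8 in Th2, against 77.1 and 57.0 in Th17. Chil3, the chitinase-like protein Ym1, stood at 13.79 and 10.87 in Th2, against 8.59 and 2.14 in Th17 (6.96, SE 2.31, adjusted p = 0.454). Ccl24, a chemokine for eosinophils, stood at 10.55 and 8.85 in Th2, against 3.51 and 2.07 in Th17 (6.91, SE 0.74, adjusted p = 0.081). Ccl17, a ligand of CCR4, stood at 10.33 and 8.28 in Th2, against 2.93 and 3.03 in Th17 (6.32, SE 0.69, adjusted p = 0.0863). Its difference was 5.30 without Th2 replicate 1 and 7.35 without Th2 replicate 2. In each of these genes Th2 replicate 1 was the highest array and the groups did not overlap. The general myeloid marker list did not separate the cultures in this way: its 24 genes summed to 203.3 and 152.4 in Th2, against 187.0 and 150.0 in Th17, and Lyz2, lysozyme, stood at 10.26 and 6.83 in Th2, against 8.92 and 7.39 in Th17. Retnla, Cd163 and Alox15, other genes of such macrophages, were under the filter value in all 4 arrays. The part of these cells in the T cell results was not tested, and without Th2 replicate 1 the count of calls was again 27, of which 12 were among the 27 named above.

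B cell and antigen presentation genes were measured in all 4 arrays, and 1 stromal gene was high in Th17. The 12 genes of MHC class II presentation summed to 90.3 and 99.0 in Th2, against 89.6 and 86.7 in Th17, with Cd74, the invariant chain, at 10.74 and 11.70 in Th2, against 11.03 and 10.50 in Th17. The 17 B cell genes summed to 87.2 and 102.9 in Th2, against 100.3 and 86.5 in Th17, while Pax5, the B cell master regulator, was under the filter value in all 4. The sums of B cell genes thus overlapped. Among 16 fibroblast and stromal genes, Lum, a matrix proteoglycan, stood at 2.78 and 1.71 in Th2, against 11.34 and 7.32 in Th17 (-7.08, SE 1.49, adjusted p = 0.279), the largest difference of any tested gene towards Th17. The collagen genes Col1a2 and Col3a1 and the proteoglycan gene Dcn were under the filter value in all 4 arrays. The sums of the stromal list, which holds the T cell genes Thy1 and Vim, were 70.1 and 68.1 in Th2, against 80.5 and 74.4 in Th17.

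**Figure D5:**
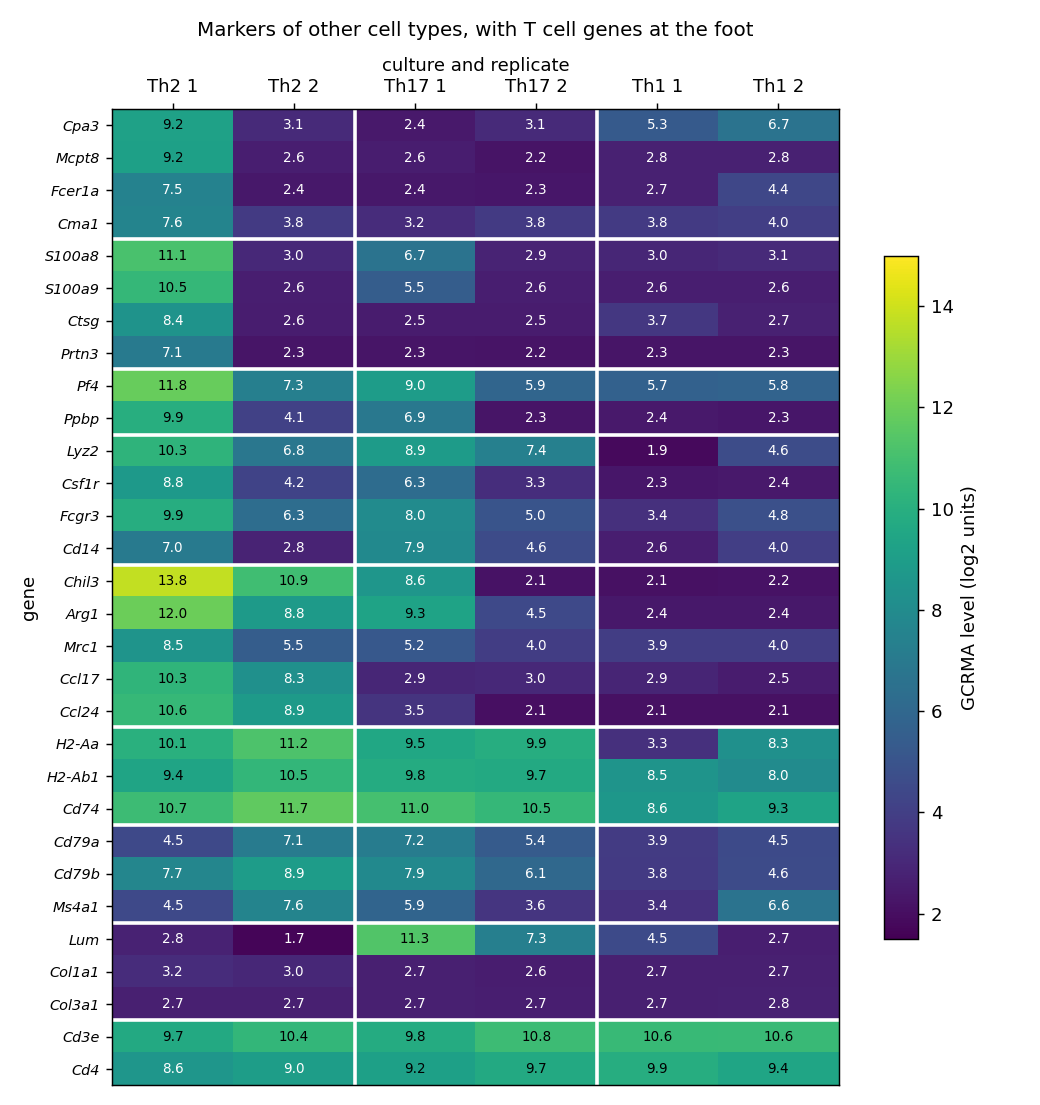
GCRMA levels in log2 units, as colour and printed value, of markers of other cell types in the 6 cultured arrays, in blocks for mast cells and basophils, neutrophils, platelets, myeloid cells, alternatively activated macrophages, MHC class II, B cells and stroma, with 2 T cell genes at the foot. Th2 replicate 1 was the highest Th2 or Th17 array for every gene of the first 5 blocks but Cd14, Chil3, Ccl17 and Ccl24 were high in both Th2 arrays, and Lum was high in both Th17 arrays.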

How the data were processed

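The authors deposited 1 table of GCRMA values on the log2 scale, per the submitters' processing notes. GCRMA corrects background from probe sequence, normalizes between arrays and summarizes probe sets; its version and which arrays were processed together are not given in the sources used here. Of 45101 probe sets, 34945 had 1 gene symbol in the platform annotation, 932 several and 9160 none, and 64 were controls. Each of 18193 genes was represented by its probe set of highest mean level across the 8 arrays. Testing covered the 10635 genes above 3.06 (the median of all values in the 6 cultured arrays) in at least 2 of those arrays. It used R 4.3.3 and limma 3.58.1, two-sided, with a coefficient for each culture type, variances moderated along the mean level (residual degrees of freedom 3, prior 1.75) and Benjamini-Hochberg adjustment. SE is that of this fit. The procedure was tested on simulated data. The 35 lists (644 of 711 symbols on the array), the comparison and the named genes were chosen with earlier results of these data known. Named genes were the 15 largest calls each way without overlap, members of the Th2 and Th17 lists, and the called or highest members of other lists; any other gene named was chosen after its values were seen. Neighbouring genes were taken from the order of protein-coding genes in RefSeq GRCm38.p6. The number of arrays limits the precision. Plots used matplotlib 3.10.9.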

Additional observations from a re-analysis of the deposited data

How the results depend on the processing

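The count of 27 calls (22 higher and 5 lower in Th2) changed with the arrays fitted, the filter, the fold threshold, the scaling, the probe sets and the variance model. With all 8 arrays it was 86 (61 and 25, holding all 27), with the 4 arrays alone 3 (3 and 0), without a filter 18 (15 and 3), above the 65th percentile 11 (10 and 1), without a trend 17 (17 and 0), and at a difference of at least 2 log2 units 22 (19 and 3). Shifting arrays to one median gave 31 (24 and 7), quantile normalization 26 (21 and 5), robust estimation 24 (20 and 4), averaging probe sets 22 (17 and 5), and choosing probe sets over the cultured arrays 26 (21 and 5). Leaving out 1 array gave 5 to 49 calls, 1 to 45 higher and 1 to 4 lower. The labels link replicates of different culture types by their number alone. Deviations of replicate 1 from its group mean correlated at 0.272 between Th2 and Th17 and 0.257 between Th17 and Th1. Between Th2 and Th1 the correlation was 0.0035. Whether replicates of the same number shared a batch or day was not tested. With the replicate block 7 genes were called (7 higher and 0 lower, all among the 27). Of the genes named, no called gene changed sign.

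Among lists, the Th2 programme had 1 member called higher with 4 arrays or the replicate block, secreted cytokines 1 with 4 arrays, the 65th percentile or the block, and the list from earlier results 0 with 4 arrays or the block. Ahrr was lost, leaving 0, with 4 arrays, the 65th percentile, no trend, the block and the threshold of 2. With all 8 arrays, members were called lower in the Th17 list (3), the Th1 list (2), secreted cytokines (2), chemokine receptors, TNF ligands, Tfh genes and SOCS and STAT genes (1 each), and higher in the macrophage list (2), chemokines (2), regulatory T cell, IL-4 response, TNF ligand and Tfh genes (1 each). The median shift called 2 macrophage and 2 chemokine genes higher and 1 member lower in each of the Th17 and chemokine receptor lists. Without a fold threshold, 1 chemokine receptor was lower. Over arrays left out, called members ranged from 0 to 3 in the Th2 list, 0 to 2 in secreted cytokines and the list from earlier results, and 0 to 1 elsewhere.

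Uncalled differences changed sign for Hif1a under quantile normalization (-0.030) and the median shift (-0.043), for Il21 over the mean of probe sets (-0.20), and for 23 genes when 1 array was left out. The lowest and highest differences over the arrays left out were -0.19 to 1.82 for Asns, -0.79 to 0.67 for Ccr4, -3.40 to 0.79 for Cd14, -0.70 to 0.25 for Cd3e, -0.028 to 0.94 for Cd74, -0.12 to 0.17 for Hif1a, -5.56 to 0.26 for Hspa1b, -0.20 to 2.38 for Ifng, -0.21 to 0.53 for Il21, -1.08 to 0.39 for Il4ra and -1.98 to 0.83 for Irf1. They were -1.33 to 2.10 for Lyz2, -0.089 to 0.34 for Mki67, -0.48 to 2.52 for Ms4a6d, -0.079 to 0.29 for Nfkbiz, -0.11 to 4.40 for Pf4, -1.72 to 6.34 for S100a8, -0.55 to 0.51 for Slc2a1, -0.10 to 0.94 for Socs3, -0.62 to 0.15 for Stat3, -0.16 to 0.031 for Stat6, -0.44 to 0.75 for Tnfsf11 and -6.33 to 0.0027 for Ubd. The cause was not tested. With 2 arrays a group, levels near or under 3.06 lie at the array background, so that a difference with one side there depends on that floor.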

Other observations

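The Il5 neighbourhood was chosen after its values were seen. On chromosome 11 the genes in order are Septin8, Kif3a, Il4, Il13, Rad50, Il5 and Irf1. Kif3a, a motor protein of cilia, stood at 11.70 and 10.53 in Th2, against 6.34 and 6.43 in Th17 (4.73, SE 0.43, adjusted p = 0.0533), and its 3 other measured probe sets differed by 0.57 to 3.58. Rad50, a DNA repair gene, stood at 9.17 and 9.17 in Th2, against 8.62 and 8.33 in Th17. Septin8 stood at 6.34 and 5.06 in Th2, against 4.44 and 4.23 in Th17, and Irf1, at the far end, overlapped (9.37 and 10.25, against 8.97 and 11.79). The differences in this stretch were thus 1.36, 4.73, 10.88, 6.02, 0.69, 8.65 and -0.57.

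Of 113 tested neighbours within 4 protein-coding genes of the 27 called genes, 59 differed in the same direction as the called gene and 54 in the opposite one. By at least 1 log2 unit 20 differed in the same direction and 8 in the opposite one, and 85 differed by less. The share of all tested genes that differ by this much was not counted. The 20 are not independent, since several lie together in the Ms4a, Serpinb and Il4 clusters. Examples follow that were chosen after their values were seen. Sh3gl3, beside Adamtsl3, stood at 7.51 and 7.34 in Th2, against 3.18 and 4.43 in Th17. Myo6, an actin motor 2 places from Htr1b, stood at 9.17 and 11.80 in Th2, against 2.53 and 2.98 in Th17 (7.73, SE 0.88, adjusted p = 0.0939). Its difference was 9.05 without Th2 replicate 1 and 6.42 without Th2 replicate 2. Ikzf3 lies beside Zpbp2. Serpinb6b and Serpinb9b, on either side of Serpinb9, differed by 2.83 and 2.05, but these are related sequences that probe sets may share. Around Gm8369 lie Ms4a4c, Ms4a4b, Ms4a6c and Ms4a6b, genes of 4-span membrane proteins of which Ms4a4b is known in T cells. They differed by -3.18, -2.64, -3.71 and -2.07, none called. Another measured probe set of each, in the same order, differed by -2.58, -1.46, -0.35 and -2.05. Farther along, Ms4a4d differed by -1.09 and Ms4a6d by 1.02, and Ms4a2, which was not tested, by 1.73. Ms4a4b stood at 9.06 and 9.33 in Th2, against 11.29 and 12.37 in Th17, and at 14.21 and 14.40 in Th1. No test of neighbours was made.

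The next 4 genes, none called, were chosen after their values were seen. Cd36, a fatty acid receptor, stood at 8.34 and 6.97 in Th2, against 4.22 and 3.71 in Th17 (3.69, SE 0.50, adjusted p = 0.152). Fabp4, a fatty acid carrier, stood at 7.58 and 6.14 in Th2, against 3.40 and 3.42 in Th17 (3.45, SE 0.51, adjusted p = 0.163). Olr1, a receptor for oxidised lipoprotein, stood at 9.76 and 10.02 in Th2, against 6.33 and 5.87 in Th17 (3.79, SE 0.42, adjusted p = 0.0906). Lpl, lipoprotein lipase, stood at 11.67 and 8.00 in Th2, against 5.90 and 6.60 in Th17 (adjusted p = 0.495). Macrophages also express these genes, and the macrophage markers Chil3 and Ccl24 were high in the same arrays. Their part was not tested.

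A pair of neuropeptide genes stood high in both Th2 arrays. Nts, neurotensin, stood at 13.83 and 11.18 in Th2, against 3.20 and 3.27 in Th17 (9.26, SE 1.73, adjusted p = 0.258), and Th1 replicate 2 at 8.41. Penk, proenkephalin, stood at 13.09 and 13.43 in Th2, against 9.82 and 7.39 in Th17. Tph1, the first enzyme of serotonin synthesis, stood at 8.54 and 2.49 in Th2, against 2.49 and 2.47 in Th17, so that it was high only in the array that was also high in mast cell genes. The serotonin receptor genes Htr1b and Htr7 were higher in both Th2 arrays. The related aldo-keto reductase genes Akr1c18, Akr1c12 and Akr1c13 differed by 5.94, 4.68 and 3.82, and probe sets may share their sequences.

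Single arrays stood out for other genes. The heat shock gene Hspa1b stood at 6.80 and 6.46 in Th2, against 12.19 and 6.38 in Th17, and was high only in Th17 replicate 1. The interferon-inducible gene Ubd stood at 2.56 and 2.55 in Th2, against 2.55 and 8.88 in Th17, and was high only in Th17 replicate 2. The clustered granzyme genes Gzmd and Gzmg stood at 11.82 and 5.96, and at 9.71 and 2.94, in Th2, against 6.55 and 3.63, and 2.99 and 2.85, in Th17, and were highest in Th2 replicate 1.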
